A study of Condylura cristata and Mus musculus with 12 samples.

Results

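The microtubule motors of the trigeminal (TG) and dorsal root (DRG) sensory ganglia were examined in the star-nosed mole, Condylura cristata, and in the mouse: the kinesin heavy chains, the kinesin light chains, cytoplasmic dyneins 1 and 2, and the dynactin subunits. Genes were taken by symbol alone (Kif, Klc, Dync, Dynll, Dynlrb, Dynlt1 and 3, Dctn), which gave 62 genes, of which 61 were among the 33773 genes of the mole table, 60 among the 26125 of the mouse table and 59 in both. They were sorted by known role into 15 cargo transport kinesins, 4 kinesin light chains, 13 mitotic kinesins, 11 ciliary and other kinesins, 11 subunits of cytoplasmic dynein 1, 2 of cytoplasmic dynein 2 and 6 of dynactin. Kif25 and Dynlt1 had no mouse row of their own, and Kif4 had none in the mole, where it shared a row with Kif4a that the symbols did not match. Dynlt1 has near-identical copies counted as separate rows, so its level is uncertain.

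RNA sequencing covered ganglia of adult wild male moles, 3 libraries per ganglion, and of adult female C57BL/6 mice, 2 libraries per ganglion. Each library came from 1 animal, except that 1 mole DRG library pooled 2 animals, and the sources used here do not say which. The first library of each mole ganglion (TG 1 and DRG 1) used the Genomic Sample Prep kit with 76-base reads from a Genome Analyzer II, and every other library used the TruSeq kit and a HiSeq. Species differed in sex, by the labels in read layout, and in how reads were aligned, and these cannot be told apart from species.

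A sensory ganglion neuron makes nearly all of its proteins in the cell body and ships them along an axon that is far longer than the cell body is wide. Most kinesins walk towards the plus ends of microtubules, which in the axon point to its tip. The cargo kinesins carry vesicles, mitochondria and neurofilaments outward. Cytoplasmic dynein 1, working with dynactin, walks the other way and returns endosomes, neurotrophin signals and worn organelles to the cell body. A further group of kinesins builds and moves the mitotic spindle of dividing cells, and dynein 2 with kinesin-2 runs transport inside cilia.

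Library totals were 8409670 to 11140894 counts for mole TG and 9706906 to 92323879 for mole DRG, and in the mouse 126677697 to 147076817 for the TG label and 90548941 to 125816358 for the DRG label. Motor genes took 12510 to 16550 CPM (counts scaled to a common library total after TMM adjustment) in the mole and 16890 to 19820 in the mouse. Position genes ran against the mouse labels. Hoxa9, a gene of the trunk, was at 0.0871 to 0.135 CPM in mole TG and 25.8 to 37.9 CPM in mole DRG, but at 8.47 to 9.59 CPM in the mouse TG-labelled libraries and 0.160 to 0.283 CPM in the DRG-labelled ones. Each mouse direction below is therefore by label only. Mole TG 1 and mole DRG 2 stood apart from the other libraries of their ganglion: mole TG 1 correlated with TG 2 and TG 3 at a Spearman rho of 0.866 and 0.855 across genes, against 0.974 between those 2, and mole DRG 2 with DRG 1 and DRG 3 at 0.919 and 0.900, against 0.970. Sensory neuron markers were present in every library: Prph was at 923 to 1915 CPM and Nefh at 1693 to 3868 CPM over the 10 libraries.

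In the mole, 12 motor genes differed between ganglia. Kif1c, Kif19a and Klc1 were higher in TG, and Dctn4, Kif2a, Dync1li1, Dync2li1, Dync1i1, Kif3b, Dctn5, Kif1a and Dctn6 were higher in DRG. Of the 61 genes, 6 (Kif2b, Kif2c, Kif4b, Kif12, Kif18b and Kif25) did not pass the filter on low counts, which left 55 tested. The 3 genes higher in TG were 5.45% of those tested, against 10.5% of all 18078 genes, and the 9 higher in DRG were 16.4%, against 12.9% of all genes. The median log2 fold change of the 55, TG over DRG, was -0.60, beside 0.12 over all genes. In 6 motor genes (10.9%) every TG library lay above every DRG library, and in 15 (27.3%) every DRG library lay above every TG library, beside 21.7% and 22.4% of all genes.

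Those counts rested on particular libraries. Without mole TG 1 and mole DRG 2 together, 12 motor genes were higher in TG and 27 in DRG, of 6236 and 5601 over all genes, and all 12 calls were kept. Those are the libraries that stood apart from their ganglion, so leaving them out narrows the spread within groups. The calls kept in that fit are therefore no support for the 12. Without mole TG 2, 0 motor genes passed in either direction by edgeR, with 3 and 12 at an unadjusted p under 0.05 and 209 and 200 genes called over the whole table. Without mole TG 3, 0 passed as well, with 4 and 13 at an unadjusted p under 0.05 and 391 and 454 genes called over the whole table. Without mole DRG 1, 0 and 1 passed, of 203 and 385 over all genes, and without mole DRG 3, 1 and 1, of 253 and 443. Without mole TG 1, 4 and 20 passed, of 2306 and 3619, and without mole DRG 2, 6 and 16, of 3546 and 3490. The count over all genes moved in the same way as that of the motors. In bulk tissue, fewer cells of a type and less RNA per cell cannot be told apart.

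**Figure D1:**
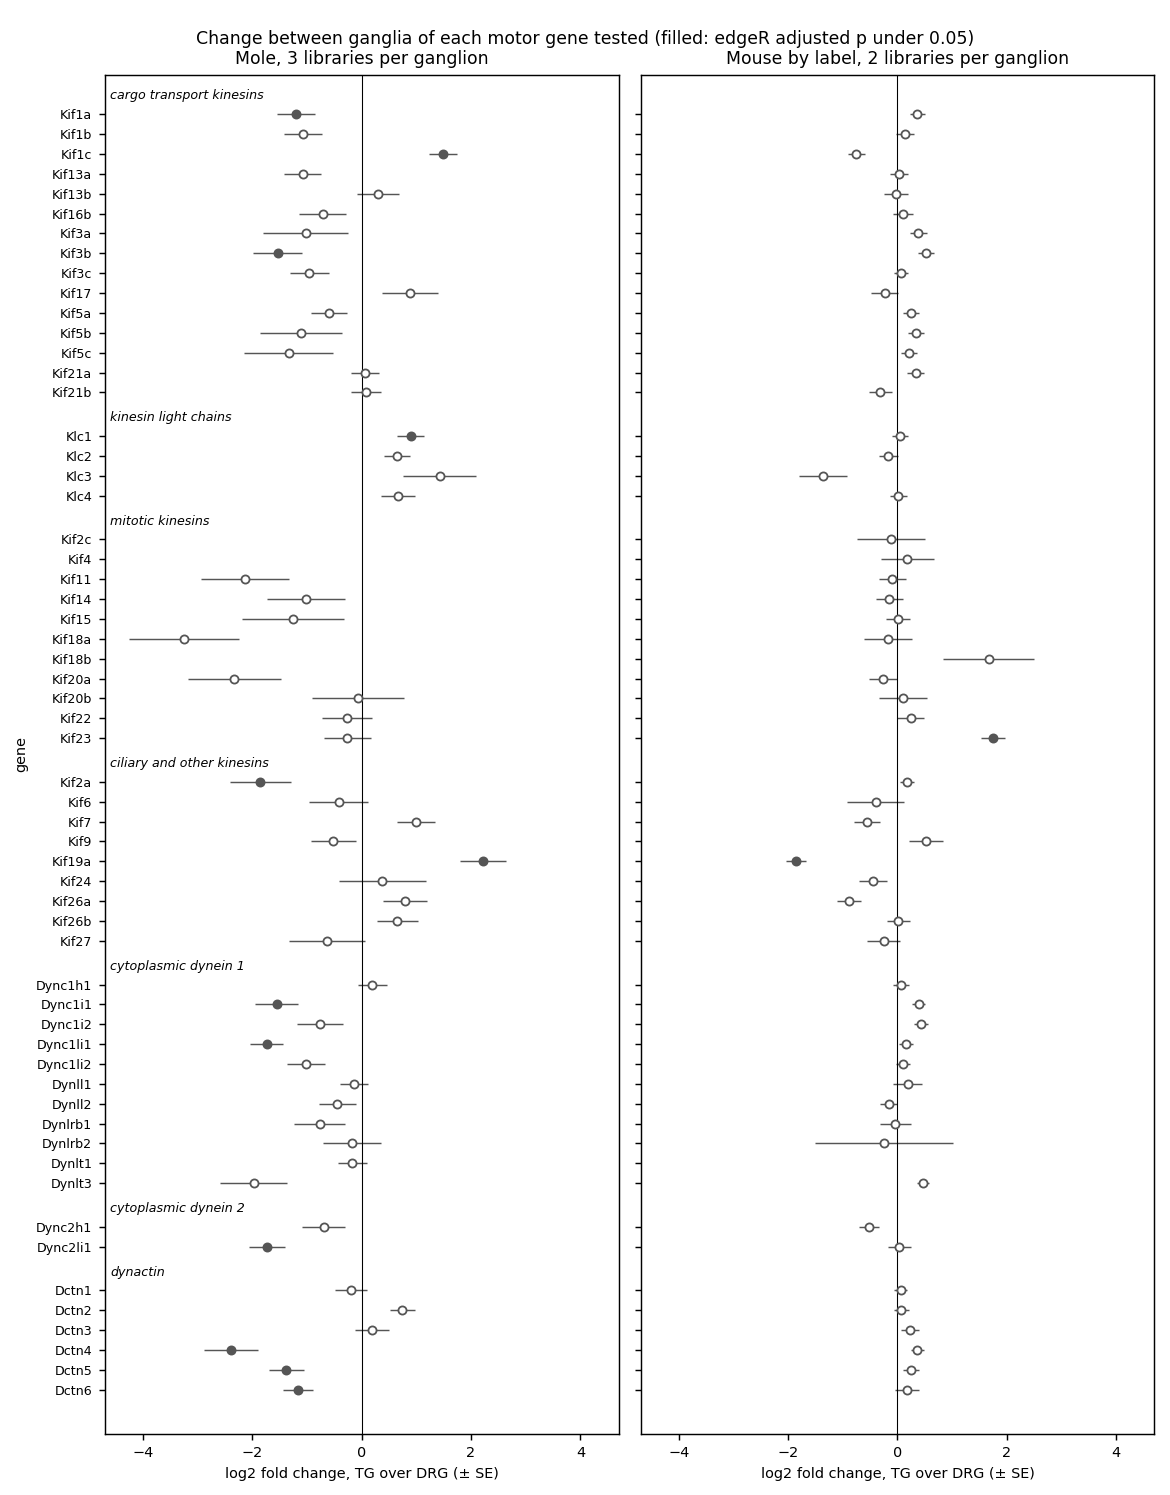
Log2 fold change of TG over DRG (± SE) for each motor gene tested, grouped by role, in the mole (left, 3 libraries per ganglion) and in the mouse by label (right, 2 per ganglion). Filled points passed an edgeR adjusted p of 0.05: 12 in the mole, 9 of them left of zero, and 2 in the mouse, Kif23 on the right and Kif19a on the left.

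Of 15 cargo transport kinesins tested in the mole, 2 were higher in DRG (13.3%, beside 12.9% of all genes) and 1 was higher in TG (6.67%, beside 10.5%). Negative log2 fold changes were found in 10, and the median was -0.96. Kif1a, the kinesin-3 that carries synaptic vesicle precursors and dense core vesicles, was at 197, 350 and 426 CPM in mole TG 1, 2 and 3 and at 878, 561 and 808 CPM in mole DRG 1, 2 and 3. All DRG values lay above all TG values, a log2 fold change of -1.21 ± 0.35 (SE) with an adjusted p of 0.0417. Kif3b, a subunit of heterotrimeric kinesin-2, was at 54.2, 21.5 and 20.98 CPM in TG and 118, 63.9 and 99.1 CPM in DRG. The ganglia again did not overlap, and the log2 fold change was -1.54 ± 0.45 with an adjusted p of 0.0442. Kif1c, a kinesin-3 found in many tissues, went the other way, at 176, 203 and 230 CPM in TG and 73.8, 83.6 and 60.0 CPM in DRG. The log2 fold change, 1.49 ± 0.25, had an adjusted p of 0.0116, and the lowest TG library was well above the highest DRG library.

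The kinesin-3 genes Kif1b and Kif13a and the kinesin-4 gene Kif21a did not pass in the mole by edgeR. DESeq2 called Kif1b (-1.23, adjusted p = 0.0361) and Kif13a (-1.24, 0.0277), and 4 cargo kinesins in all as higher in DRG, beside 9.72% of all genes. Kif1b, which moves mitochondria and synaptic vesicle precursors, was at 636, 413 and 495 CPM in TG and 1474, 650 and 1138 CPM in DRG, a log2 fold change of -1.08 ± 0.35 with an adjusted p of 0.0587. Every DRG library was above every TG library. Kif13a, a motor of endosomal cargo, was at 13.7, 14.5 and 17.2 CPM in TG and 39.9, 20.5 and 35.9 CPM in DRG, with a log2 fold change of -1.08 ± 0.34 and an adjusted p of 0.0540. Kif21a was at 78.3, 77.5 and 84.2 CPM in TG and 90.3, 60.0 and 80.5 CPM in DRG, and the ganglia overlapped. Its log2 fold change was 0.06 ± 0.25 with an adjusted p of 0.884.

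Kinesin-1, the main carrier of the axon, is built from the heavy chains Kif5a, Kif5b and Kif5c, and here the mole TG libraries split among themselves. Kif5b, the heavy chain used by most cells, was at 930, 145 and 123 CPM in TG 1, 2 and 3 and at 633, 1154 and 794 CPM in DRG. Kif5c, a neuronal heavy chain, was at 463, 51.7 and 56.0 CPM in TG and 365, 621 and 454 CPM in DRG. In both genes mole TG 1 lay within the range of the DRG libraries while TG 2 and TG 3 were far below it. Kif3a, the partner of Kif3b in kinesin-2, had the same arrangement, at 338.9, 54.99 and 38.4 CPM in TG and 194, 406 and 281 CPM in DRG. None of the 3 passed over all libraries: the log2 fold changes were -1.11 ± 0.75, -1.34 ± 0.82 and -1.03 ± 0.78 for Kif5b, Kif5c and Kif3a, with adjusted p of 0.309, 0.261 and 0.360. Without mole TG 1 they were -2.74, -3.22 and -2.71, with adjusted p of 0.00768, 0.00630 and 0.00904. These are therefore calls that 1 library decided. With the GC offset described below, over all libraries, the log2 fold changes were -0.389, -0.915 and -0.614 (adjusted p = 0.695, 0.454 and 0.607). Over genes under 45% GC, the median log2 deviation from gene means was -0.11 in TG 1, -0.70 in TG 2 and -0.72 in TG 3. Kif5b (41.1% GC) is such a gene, while Kif5c (47.5%) and Kif3a (47.6%) are not. The part of base composition here was not tested. Kif5a, the other neuronal heavy chain, was arranged differently, at 415, 716 and 838 CPM in TG and 1213, 736 and 1030 CPM in DRG, with TG 1 the lowest of all. Its log2 fold change was -0.60 ± 0.34 with an adjusted p of 0.224.

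**Figure D2:**
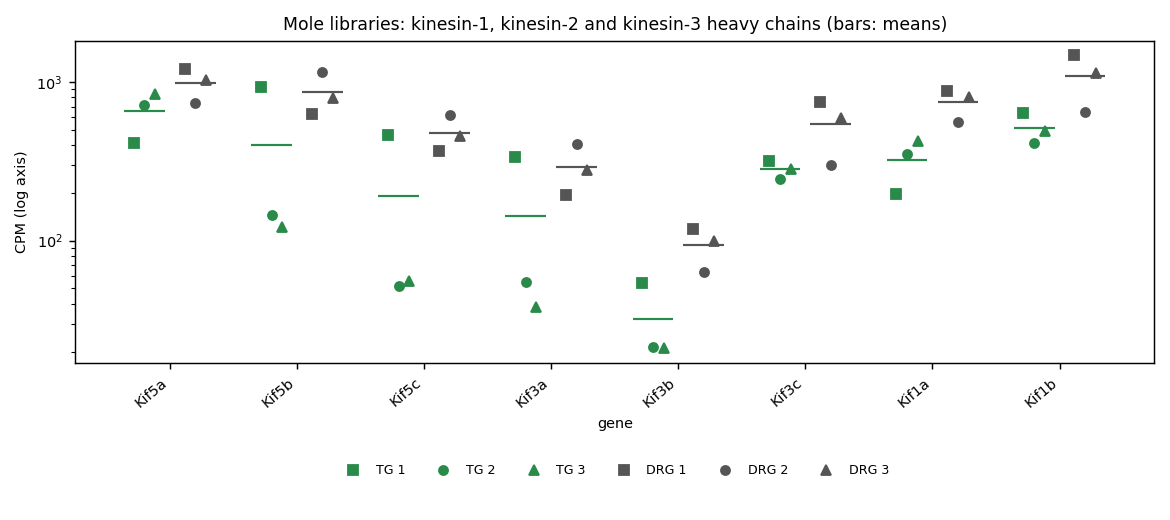
CPM (log axis) of kinesin-1, kinesin-2 and kinesin-3 heavy chains in each mole library, TG in green and DRG in grey, with squares, circles and triangles for replicates 1, 2 and 3 and bars for means. For Kif5b, Kif5c and Kif3a the TG 1 square sits among the DRG points and the TG 2 and TG 3 points sit below them.

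That arrangement, TG 1 at or above the lowest DRG library and TG 2 and TG 3 below it, occurred in 16 of the 55 motor genes tested (29.1%), beside 2028 of 18078 genes overall (11.2%). Besides Kif5b, Kif5c and Kif3a it took in Kif3c, Kif16b, Dync1i2, Dynll2 and Dynlrb1 among the transport genes. It was described after the values were seen. Mole DRG 1 was made with the same kit as mole TG 1. With the TruSeq libraries alone, 2 motor genes were higher in TG and 14 in DRG, of 906 (4.76%) and 1939 (10.2%) over 19016 genes.

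All 4 kinesin light chains, which link kinesin-1 to its cargo, had higher levels on average in mole TG, with a median log2 fold change of 0.78. Klc1, the most abundant light chain per transcript length in the mouse, was at 1615, 1881 and 1702 CPM in TG and 1034, 1048 and 719 CPM in DRG. The ganglia did not overlap, and Klc1 was the light chain that passed, with a log2 fold change of 0.89 ± 0.25 and an adjusted p of 0.0403. It passed in 4 of 14 alternatives, and not in DESeq2 (0.0808), with no filter (0.175) or in the TruSeq libraries alone (0.0684); DESeq2 called 0 light chains. Klc2, Klc3 and Klc4 had log2 fold changes of 0.65 to 1.43 and adjusted p of 0.0805 to 0.157. Summed over the light chains, the mole TG libraries held 2945 to 3767 CPM and the DRG libraries 1541 to 2155 CPM. Summed over the cargo kinesins, the order was opposite, 2538 to 3976 CPM in TG and 4916 to 6148 CPM in DRG. The sums did not overlap between ganglia in either class and were not tested. With an offset for GC content, described below, the light chain median was -0.09 and Klc1 had a log2 fold change of 0.21 with an adjusted p of 0.567.

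Among the 11 subunits of cytoplasmic dynein 1, the heavy chain did not differ detectably and some of the chains that hold cargo and dynactin did. Dync1h1, the heavy chain that contains the motor, was at 1883, 2721 and 2608 CPM in mole TG and 2506, 2032 and 1776 CPM in mole DRG. The ganglia overlapped, with a log2 fold change of 0.19 ± 0.27 and an adjusted p of 0.613. Dync1li1, a light intermediate chain that binds cargo adaptors, was at 79.7, 58.5 and 55.9 CPM in TG and 192, 172 and 284 CPM in DRG. Every DRG library exceeded every TG library, and the log2 fold change was -1.74 ± 0.30 with an adjusted p of 0.0117. Dync1i1, the neuronal intermediate chain, was at 206, 87.4 and 96.1 CPM in TG and 421, 434 and 291 CPM in DRG, with a log2 fold change of -1.56 ± 0.39 and an adjusted p of 0.0284. Dync1i2, the intermediate chain of most tissues, was at 538, 235 and 199 CPM in TG and 493, 723 and 441 CPM in DRG. Mole TG 1 lay among the DRG libraries, and the adjusted p was 0.213 for a log2 fold change of -0.77 ± 0.42. Dynlt3, a light chain, was at 129, 35.5 and 38.9 CPM in TG and 203, 156 and 439 CPM in DRG, and missed the threshold with an adjusted p of 0.0514 at a log2 fold change of -1.98 ± 0.61. By edgeR 0 dynein 1 genes passed as higher in TG, as by DESeq2, with 0 at an unadjusted p under 0.05, and 10 of 11 had a negative log2 fold change. As higher in DRG, DESeq2 called 4 (beside 9.72% of all genes) and edgeR 2 (18.2%, beside 12.9% of all genes). The DESeq2 calls added Dynlt3 (-2.13, adjusted p = 0.00690) and Dync1li2 (-1.17, 0.0485).

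Dynactin, the complex that joins dynein to cargo and keeps it on the track, was uneven across its subunits. Of 6 subunits, 3 were higher in mole DRG (50%, beside 12.9% of all genes). They are the ones at the complex's pointed end: Dctn4 (p62), Dctn5 (p25) and Dctn6 (p27). The pointed end was not one of the classes used here, and the grouping was not tested. Dctn4 was at 55, 19.2 and 21.3 CPM in TG and 168, 108 and 223 CPM in DRG. Its log2 fold change, -2.39 ± 0.49 with an adjusted p of 0.0171, was the most negative among the motor genes that passed. Dctn5 was at 50.8, 30.7 and 25.2 CPM in TG and 96.9, 101 and 79.3 CPM in DRG, with a log2 fold change of -1.38 ± 0.33 and an adjusted p of 0.0247. Dctn6 was at 29.6, 34.99 and 45 CPM in TG and 86.4, 86.7 and 73.0 CPM in DRG, with a log2 fold change of -1.17 ± 0.27 and an adjusted p of 0.0225. In each of these genes the ganglia did not overlap. Dctn2, or dynamitin, lay the other way, at 766, 907 and 830 CPM in TG and 549, 530 and 419 CPM in DRG without overlap, and did not pass (0.74 ± 0.23, adjusted p = 0.0545); it was singled out after its values were seen. Dctn1, the p150Glued arm that contacts microtubules and dynein, was at 1018, 997 and 989 CPM in TG and 1591, 1044 and 800 CPM in DRG, with both ganglia overlapping. Its log2 fold change was -0.19 ± 0.30 with an adjusted p of 0.651. With an offset for GC content, described below, the pointed-end subunits were no longer set apart. Dctn1 was then at -1.13 (adjusted p = 0.0572), Dctn2 at 0.10 (0.771) and Dctn3 at -0.375 (0.371). Dctn5 was at -0.90 (0.0894) and Dctn6 at -0.70 (0.136), and only Dctn4 passed (-1.66, 0.0342).

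**Figure D3:**
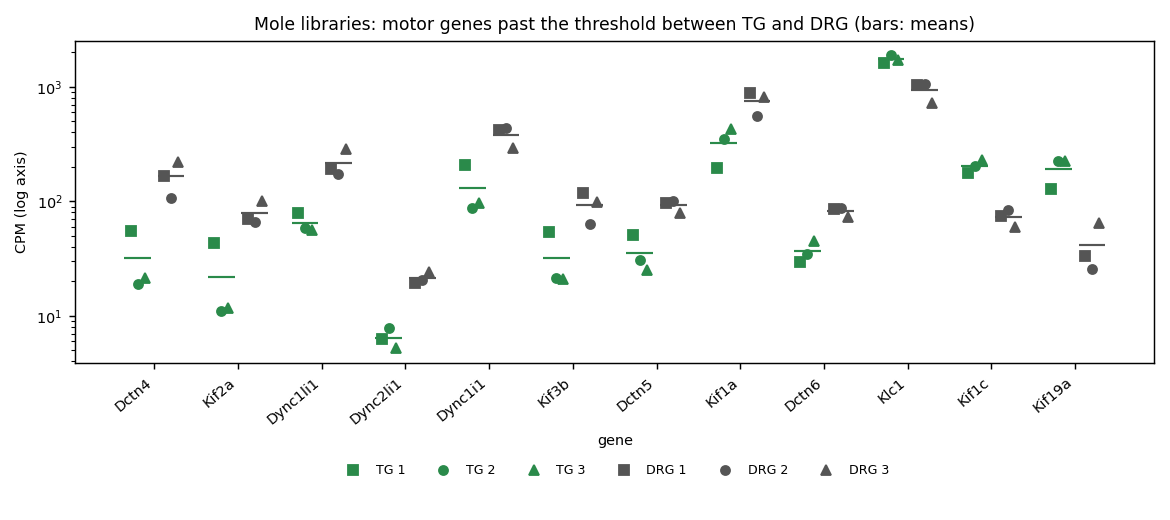
CPM (log axis) in each mole library of the 12 motor genes that passed between ganglia, TG in green and DRG in grey, with squares, circles and triangles for replicates 1, 2 and 3 and bars for means. The 9 genes on the left have every DRG point above every TG point, and Klc1, Kif1c and Kif19a have every TG point above every DRG point.

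Mitotic kinesins were scarce in the mole ganglia. Of the 12 with a row, 8 passed the filter, and none passed the test between ganglia by edgeR, with 3 at an unadjusted p under 0.05. DESeq2 called 3 as higher in DRG (Kif11, Kif18a and Kif20a, adjusted p 0.00808 to 0.0463), beside 9.72% of all genes. All 8 had a negative log2 fold change, with a median of -1.13, but their sum was 15.2 to 24.9 CPM in TG and 24.2 to 35.3 CPM in DRG. Kif11, the Eg5 motor that pushes spindle poles apart, was at 0.672, 0.372 and 0.174 CPM in TG and 1.05, 1.17 and 2.91 CPM in DRG, with an adjusted p of 0.0904. Kif18a, a kinesin-8 that aligns chromosomes, had the most negative log2 fold change of the motor genes, -3.25 ± 1.01 with an adjusted p of 0.0520. It was at 0.269, 0.279 and 0 CPM in TG and 1.05, 1.66 and 2.36 CPM in DRG, from 2, 3 and 0 counts against 11, 17 and 222. It was singled out after its values were seen. Kif20a, a cytokinesis motor, was at 1.08, 0.186 and 0.871 CPM in TG and 4.46, 1.07 and 5.02 CPM in DRG, with an adjusted p of 0.0827. Kif23, a central spindle motor, was at 4.44, 3.63 and 2.96 CPM in TG and 4.27, 4.10 and 4.82 CPM in DRG, with an adjusted p of 0.667. Kif2c had 4, 8 and 3 counts in TG 1, 2 and 3 and 13, 5 and 76 in DRG 1, 2 and 3. The 76 came from DRG 3, whose total of 92323879 counts was far above those of the other mole libraries. Kif2c was not tested, and neither were Kif2b, Kif4b and Kif18b. Markers of dividing cells also did not pass: 0 of 14 tested in either direction by edgeR and by DESeq2 (1 at an unadjusted p under 0.05), with sums of 71.7 to 80.3 CPM in TG and 77.4 to 85.4 CPM in DRG.

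Of the 9 ciliary and other kinesins tested in the mole, 1 passed in each direction. That is 11.1% each, beside 10.5% of all genes higher in TG and 12.9% higher in DRG. Kif19a, a kinesin-8 that shortens microtubules at cilium tips, was at 129, 226 and 224 CPM in TG and 33.5, 25.6 and 65.2 CPM in DRG. It had the largest log2 fold change in favour of TG among the motor genes tested, 2.22 ± 0.42 with an adjusted p of 0.0145, and the ganglia did not overlap. Kif2a, a kinesin-13 that takes microtubules apart and is active in neurons, was at 43.3, 11.1 and 11.7 CPM in TG and 70.1, 66.2 and 102 CPM in DRG. It passed narrowly, with a log2 fold change of -1.86 ± 0.56 and an adjusted p of 0.0488. Dync2li1, the light intermediate chain of the ciliary dynein 2, was at 6.32, 7.82 and 5.22 CPM in TG and 19.6, 20.6 and 24.01 CPM in DRG, a log2 fold change of -1.73 ± 0.33 with an adjusted p of 0.0143. The heavy chain Dync2h1 did not pass, with a log2 fold change of -0.70 ± 0.39 and an adjusted p of 0.225. Motile cilium markers were low, 27.97 to 40.75 CPM summed in TG and 13.3 to 17.7 CPM in DRG, with 2 of 6 higher in TG, beside 10.5% of all genes.

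Base composition moved with these changes. The GC content of the mouse transcript of the same symbol stands in here for the mole sequence, and 54 of the 55 motor genes tested (98.2%) had a value. Across those 54 genes the mole log2 fold change rose with GC content, with a Spearman rho of 0.71 and a Pearson r of 0.73. The genes share libraries and are not independent replicates. The called genes higher in TG had a median GC of 56.0% and those higher in DRG 48.1%. The trend was also present outside the motors: over the 13665 mole genes with a value rho was 0.57 and r 0.52. Those are 75.6% of the genes tested, under the 80% set for a check over all genes, so that check counts as void and the value is a description of the genes that have one. In the mouse rho was -0.37 over 57 motor genes and -0.27 over the 17170 genes with a value (80.3%).

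The coding sequences show how motors that share a fold can differ in composition. Each 60-base stretch below is mouse coding sequence (GRCm38, GENCODE M21), 5′ to 3′ on the coding strand, around the ATP-binding P-loop that kinesin heavy chains share, and the capitals mark the 24 bases that encode the loop. Each spans an exon junction, so the positions given include an intron. Kif19a (chr11:114779272-114779616, plus strand, exons 4 and 5) and Kif2a (chr13:106979021-106979521, minus strand, exons 10 and 11) are shown because they passed in opposite directions, and Kif5a (chr10:127247622-127248083, minus strand, exons 3 and 4) and Kif5c (chr2:49680185-49688658, plus strand, exons 3 and 4) because they are near relatives whose mole TG libraries were arranged differently.
Kif19a: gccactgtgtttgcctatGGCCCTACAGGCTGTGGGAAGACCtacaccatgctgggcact
Kif2a: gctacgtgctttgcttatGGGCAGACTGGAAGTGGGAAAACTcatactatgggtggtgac
Kif5a: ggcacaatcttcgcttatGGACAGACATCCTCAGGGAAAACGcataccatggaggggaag
Kif5c: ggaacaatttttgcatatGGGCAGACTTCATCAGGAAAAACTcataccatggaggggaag

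The whole coding sequence was 60.9% GC in Kif19a, 43.2% in Kif2a, 55.3% in Kif5a and 51.2% in Kif5c, and the third codon position was 74.5%, 37.6%, 73.3% and 65.4% GC. Kif5a and Kif5c shared 51 of the 60 bases shown (85%), and their stretches were 51.7% and 43.3% GC. Kif19a and Kif2a shared 36 (60%), and their stretches were 58.3% and 50% GC.

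With a loess offset for GC content in each library, the motor genes' relation to GC fell to a rho of 0.14 in the mole, and 1 motor gene was higher in TG and 5 in DRG, of 810 (4.48%) and 1353 (7.48%) of all genes. That offset rests on the 13665 mole genes with a value, 75.6% of those tested, and genes with no value got none. The shares over all mole genes with the offset therefore mix genes with and without it, and are a description only. Of the 12 calls, 5 held: Kif1c (log2 fold change 0.94, adjusted p = 0.0326), Kif1a (-1.88, 0.0186), Dync1i1 (-1.82, 0.0373), Dync1li1 (-1.32, 0.0246) and Dctn4 (-1.66, 0.0342). Kif13a passed with the offset (-1.38, 0.0393). Kif19a (0.98, 0.176), Kif2a (-0.91, 0.121), Kif3b (-1.23, 0.0908), Dync2li1 (-1.07, 0.0617), Dctn5 (-0.90, 0.0894) and Dctn6 (-0.70, 0.136) kept their direction without passing. The median over motor genes was -0.46 with the offset, beside 0.03 over all genes. The part of base composition in each change was not tested further.

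**Figure D4:**
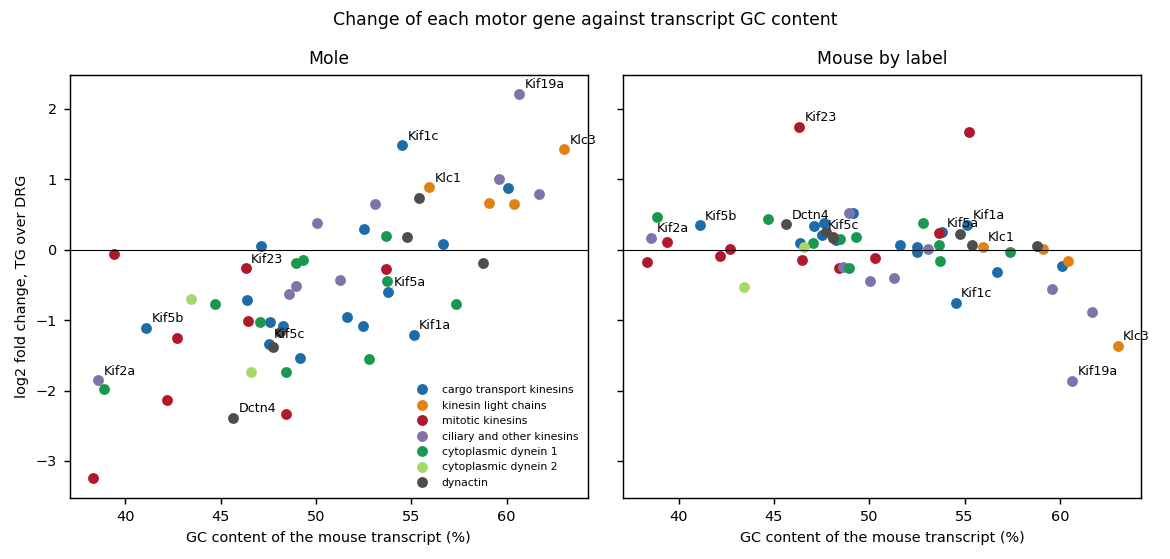
Log2 fold change of TG over DRG against the GC content (%) of the mouse transcript for each motor gene tested, coloured by role, in the mole (left) and in the mouse by label (right). The mole points rise with GC (rho 0.71 over 54 motor genes, 0.57 over all genes with a value). Most mouse points lie near zero (rho -0.37 over 57 motor genes, -0.27 over all genes with a value). Exceptions include Kif19a and Klc3, below zero at the high GC end, and Kif23 and Kif18b, above the rest.

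In the mouse, by label, 57 of the 60 motor genes passed the filter (not Kif2b, Kif4b and Kif12) and 2 passed the test, 1 in each direction (1.75% each), beside 1.12% of 21394 genes higher in the TG-labelled libraries and 1.21% higher in the DRG-labelled ones. Kif23 was at 14.3 and 13.1 CPM in mouse TG 1 and 2 and at 3.90 and 4.26 CPM in DRG 1 and 2. Its log2 fold change was 1.75 ± 0.22 with an adjusted p of 0.0203, and of the 11 mitotic kinesins tested it was the 1 that passed. Kif19a was at 25.5 and 24.6 CPM in the TG-labelled libraries and 76.5 and 105 CPM in the DRG-labelled ones, with a log2 fold change of -1.86 ± 0.19 and an adjusted p of 0.0148. Both genes lost their call without either TG-labelled library, with adjusted p of 0.0965 to 0.210. Both kept it with the GC offset. The median over the motor genes was 0.06, beside -0.02 over all genes.

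By edgeR and by DESeq2, 0 of the other 10 mitotic kinesins tested in the mouse passed, with 0 at an unadjusted p under 0.05. Kif18b, a kinesin-8 singled out after its values were seen, had a log2 fold change near that of Kif23, 1.67 ± 0.83 with an adjusted p of 0.392, at 0.371 and 0.254 CPM in the TG-labelled libraries and 0.0612 and 0.137 CPM in the DRG-labelled ones. Kif11 was at 9.17 and 11.99 CPM in the TG-labelled libraries and 12.9 and 9.69 CPM in the DRG-labelled ones. Kif20a was at 6.73 and 5.59 CPM against 6.49 and 8.32 CPM, and Kif2c and Kif4 stayed between 0.314 and 1.07 CPM in every library. Their adjusted p were 0.665 to 0.949, and the groups overlapped in all 4. Of 15 dividing cell markers tested, 0 passed in the mouse by edgeR and by DESeq2 (0 at an unadjusted p under 0.05), with sums of 98.7 to 110.5 CPM in the TG-labelled libraries and 90.5 to 100.2 CPM in the DRG-labelled ones.

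The mouse transport motors lay close together between the labelled ganglia. Kif1a was at 2394 and 2509 CPM in the TG-labelled libraries and 2060 and 1762 CPM in the DRG-labelled ones (log2 fold change 0.36 ± 0.14, adjusted p = 0.272). Kif5a was at 2195 and 2246 CPM against 2062 and 1680 CPM (0.25 ± 0.15, adjusted p = 0.470), and Kif5b at 736 and 829 CPM against 671 and 559 CPM (0.35 ± 0.15, adjusted p = 0.317). In each of these both TG-labelled libraries were above both DRG-labelled ones, and none passed. That order held in 18 of the 57 motor genes tested (31.6%) and in 24.2% of all genes, and the opposite order in 9 (15.8%) and in 23.9%. Kif5c was at 931 and 1002 CPM against 918 and 750 CPM, Kif3a at 355 and 417 CPM against 321 and 270 CPM, and Kif21a at 1277 and 1294 CPM against 1145 and 894 CPM. Klc1 was at 1870 and 1637 CPM against 1557 and 1852 CPM, Dync1h1 at 1983 and 2081 CPM against 2116 and 1771 CPM, and Dctn1 at 663 and 681 CPM against 620 and 671 CPM. The groups overlapped in Klc1, Dync1h1 and Dctn1. None of these 6 had an adjusted p under 0.278.

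Levels can be set against each other across genes only per transcript length, which the mouse table allows through the reference transcripts. By mean CPM per kilobase over the 4 libraries, Klc1 stood first at 690.5, followed by Dynll2 at 330.3, Kif5a at 325.0 and Kif1a at 265.8. The order of Dynll2 and Kif5a turned between the groups, 312.0 and 352.7 in the TG-labelled libraries and 348.5 and 297.2 in the DRG-labelled ones. Kif21a was at 179.0, Kif1b at 174.1, Dctn1 at 152.4, Dync1h1 at 138.6, Kif5c at 131.3 and Kif5b at 115.9 CPM per kilobase. The mitotic kinesins Kif11, Kif23 and Kif20a were at 2.27, 2.62 and 1.85, and Kif2c and Kif4 at 0.170 and 0.161 CPM per kilobase. All of these were below the transport motors named earlier in this paragraph, but the classes overlapped. The cargo kinesin Kif17 was at 1.98 and the light chain Klc3 at 1.08 CPM per kilobase. In the mole a gene's count sums reads over transcripts of several species, and no such order was made.

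A change that passes in 1 species and not in the other is no difference between species, so the difference of the log2 fold changes, mole minus mouse by label, was tested in a single fit. It was positive past the threshold in 2 of 59 motor genes (3.39%, beside 4.39% of 21580 genes) and negative in 13 (22%, beside 12.6%). The median difference was -1.19 over the motor genes and -0.16 over all genes. With TMM factors set within each species the latter became 0.21 and the former -0.81, and 2 and 9 motor genes passed, so sizes below are to be read against that shift. These differences use the mouse groups as labelled, and most rest on those labels. With the mouse contrast turned, 0 motor genes were positive and 2 negative, of 320 (1.48%) and 1245 (5.77%) over all genes: Dync1li1 (-1.89, adjusted p = 0.0307) and Dync2li1 (-2.005, 0.0285). Kif19a was then at 0.035 (adjusted p = 0.977), Kif1c at 0.43 (0.467) and Kif23 at 1.17 (0.194). Whether the mouse labels are right was not tested.

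By label, Kif19a differed by 3.59 ± 0.59 with an adjusted p of 0.00388, being high in mole TG and low in the mouse TG-labelled libraries. Kif1c differed by 1.78 ± 0.36 with an adjusted p of 0.00862. In the mouse it was at 45.4 and 49.3 CPM in the TG-labelled libraries and 71.9 and 87.9 CPM in the DRG-labelled ones, against the mole order, with an adjusted p of 0.0724 by edgeR, 0.0460 with the GC offset and 0.00598 by DESeq2. Kif23 differed by -2.48 ± 0.55 with an adjusted p of 0.0125, with the mouse groups apart and the mole groups overlapping. Of 17 alternatives, the difference passed in all for Dync1li1 (-2.36 ± 0.43, adjusted p = 0.00610), in 16 for Dync2li1 and Kif19a and in 15 for Kif1c and Dctn4. The rest passed in 10 to 13, except for Dynlt3 and Kif2a in 5, Kif13a in 4 and Kif1b in 3.

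The 12 other negative differences were all in transport genes or in Kif2a and Dync2li1, and each combined lower values in mole TG with a mouse log2 fold change between 0.03 and 0.53. They were Kif1a, Kif1b, Kif13a and Kif3b among the cargo kinesins, Dync1i1, Dync1li1 and Dynlt3 in dynein 1, and Dctn4, Dctn5 and Dctn6 in dynactin. In the mouse, Dctn4 was at 188 and 194 CPM in the TG-labelled libraries and 150.2 and 146.7 CPM in the DRG-labelled ones, a log2 fold change of 0.36 ± 0.12 with an adjusted p of 0.196. Dync1i1 was at 225 and 225 CPM against 169 and 176 CPM, Dync1i2 at 348 and 374 CPM against 277 and 258 CPM, and Dynlt3 at 322 and 329 CPM against 233 and 237 CPM. In these 4 genes the mouse groups did not overlap, and none passed. Dync1li1 was at 214 and 209 CPM against 174 and 206 CPM, Dync2li1 at 11.4 and 12.9 CPM against 11.1 and 12.6 CPM, and Kif2a at 123 and 134 CPM against 120 and 109 CPM. Dctn5 was at 97.6 and 97.1 CPM against 73.4 and 90.7 CPM, and Dctn6 at 55.6 and 49.0 CPM against 37.0 and 56.1 CPM. Kif3b was at 136.2 and 146.5 CPM against 107 and 89.2 CPM, Kif1b at 1749 and 1979 CPM against 1910 and 1485 CPM, and Kif13a at 55.8 and 56.6 CPM against 61.95 and 47.85 CPM. Mouse groups overlapped in Dync2li1, Dctn6, Kif1b and Kif13a.

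**Figure D5:**
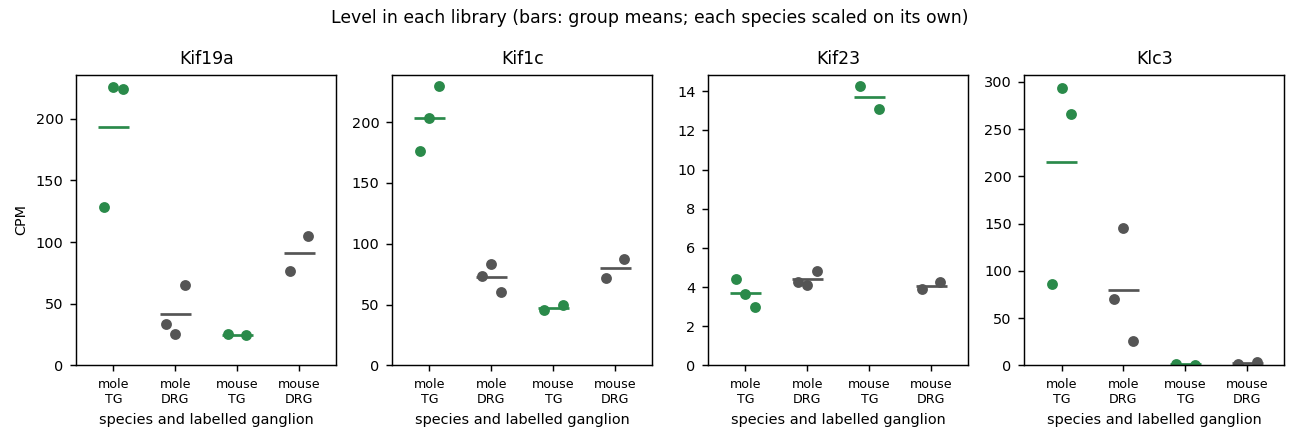
CPM in each library of Kif19a, Kif1c, Kif23 and Klc3 by species and labelled ganglion, with bars at group means and each species scaled on its own; Klc3 was added after its values were seen. Kif19a and Kif1c points lie higher in mole TG and in mouse DRG-labelled libraries, though Kif1c did not pass in the mouse by edgeR without the GC offset, Kif23 is higher in the 2 mouse TG-labelled libraries than in all other libraries, and Klc3 is under 4 CPM in every mouse library.

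Motor partners and adaptors were read from a separate list of 37 genes. In the mole 4 of the 37 were higher in TG and 9 in DRG, with a median log2 fold change of -0.48. Over all genes tested 10.5% and 12.9% were called, and 4.48% and 7.48% with the GC offset. The 4 with the smallest adjusted p were all higher in DRG: Actr10 (-2.09 ± 0.30, adjusted p = 0.00824), Capza2 (-2.17 ± 0.32, 0.00846), Capza1 (-2.44 ± 0.38, 0.00975) and Pafah1b1 (-1.92 ± 0.34, 0.0119). Actr10 is the pointed-end actin-related protein of dynactin, Capza1 and Capza2 are alpha subunits of the protein that caps its other end, and Pafah1b1 is Lis1, a regulator of dynein. With the GC offset 0 and 7 of the list passed. Actr10 lost its call (adjusted p = 0.0699), and Capza2, Capza1 and Pafah1b1 kept theirs. In the mouse 0 and 1 passed, beside 1.12% and 1.21% of all genes. The 1 was Nde1, a Lis1 partner (-1.22 ± 0.20, adjusted p = 0.0416). The species difference was positive in 2 and negative in 9 of the 37, beside 4.39% and 12.6% of all genes.

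Of 22 tubulins, microtubule-associated proteins and neurofilaments, 1 was higher in mole TG (Tuba4a, a tubulin, 1.26 ± 0.34, adjusted p = 0.0360) and 4 in mole DRG. Among the latter were the microtubule-binding proteins Mtap2 (-1.96 ± 0.45, adjusted p = 0.0228) and Mapt, or tau (-1.17 ± 0.30, 0.0306), and the tubulin-binding Stmn1 (-1.43 ± 0.36, 0.0288). With the GC offset 0 and 5 passed, and Tuba4a and Stmn1 lost their calls (adjusted p = 0.0819 and 0.0503). In the mouse 1 passed, the neurofilament protein Ina, higher in the TG-labelled libraries (1.06 ± 0.18, adjusted p = 0.0451), and the species difference was negative in 5 and positive in 0. Of 23 intraflagellar transport genes, 3 were higher in mole TG and 5 in mole DRG, with Wdr19 (-1.77 ± 0.28, adjusted p = 0.00975) and Ift80 (-2.01 ± 0.38, 0.0143) first by adjusted p. With the GC offset 1 and 1 passed, and Ift80 had an adjusted p of 0.0731. In the mouse 0 of the 23 passed by edgeR and by DESeq2, with 3 at an unadjusted p under 0.05, and the species difference was negative in 8. For both lists the shares over all genes were 10.5% and 12.9% in the mole (4.48% and 7.48% with the GC offset). They were 4.39% and 12.6% for the species difference.

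Markers of other cells moved between the ganglia in the same libraries. Of 11 genes of most neurons, 0 were higher in mole TG and 4 in mole DRG, with sums of 10770 to 16310 CPM in TG and 15030 to 19670 CPM in DRG, and of 12 sensory neuron markers 0 and 4, with sums of 3851 to 4877 and 5853 to 7820 CPM. Of 11 myelin markers, 8 and 0 passed, with sums of 10800 to 12240 CPM in TG and 1977 to 3806 CPM in DRG. Of 10 central nervous system markers 7 and 1 passed, of 12 skeletal muscle markers 8 and 0, of 9 surface epithelium markers 6 and 0, of 11 immune markers 5 and 2, and of 10 satellite glia markers 1 and 1. Over all mole genes 10.5% and 12.9% passed, and 4.48% and 7.48% with the GC offset. With the GC offset the counts were 8 and 0 for myelin, 5 and 0 for the central nervous system, 3 and 0 for muscle, 1 and 0 for epithelium, 2 and 2 for immune cells and 1 and 2 for satellite glia. They were 0 and 3 for the genes of most neurons and 1 and 5 for the sensory neuron markers. In the mouse the myelin markers ran the other way by label, 0 and 9 of 11, with sums of 4365 to 4418 CPM in the TG-labelled libraries and 10880 to 14310 CPM in the DRG-labelled ones. Of the mouse neuronal lists, 0 and 0 of 11 (2 and 0 by DESeq2, 3 and 0 at an unadjusted p under 0.05) and 2 and 0 of 12 passed by edgeR, with sums of 8736 to 8913 CPM in the TG-labelled libraries and 7137 to 9167 CPM in the DRG-labelled ones, and 9174 to 9294 CPM against 6798 to 8040 CPM. Central nervous system markers passed in 0 and 4 of 10 and muscle markers in 6 and 0 of 12. Over all mouse genes 1.12% and 1.21% passed. The part of these cells in the motor gene changes was not tested.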

How the data were processed

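Alignment by the authors used Stampy (version 1.0.11, substitution rate 0.03). Mole reads were aligned in turn to the transcripts of human, dog and mouse, and values were summed over a gene's homologs (HomoloGene build 64, with manual annotation). Mouse reads went to mouse mRNA. The values deposited by the authors are raw read counts per gene. The mole sequence's distance from each reference, and reads shared between paralogs, can change a gene's count. Lists of genes the authors called hold their own comparison and were not used. Of 12 samples, 10 had counts, and 2 mouse samples were not analysed here. All count columns matched a sample (0 left out).

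Samples were grouped by title. Counts were tested with edgeR 4.0.16 in R 4.3.3 (filterByExpr with a minimum count of 10, TMM factors, quasi-likelihood test, two-sided), within each species and, over the 24049 symbols in both tables, as an interaction. P-values were Benjamini-Hochberg adjusted over all genes that passed the filter, and the threshold was 0.05. The standard error is the size of the log2 fold change divided by the square root of F. The p-values measure the spread between the libraries given.

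The motor genes and all lists were chosen with earlier results of these data known. Values are given for genes past the threshold in any comparison and for a set of core motors (Kif1a, Kif1b, Kif3a, Kif5a, Kif5b, Kif5c, Kif21a, Klc1, Dync1h1, Dync1i1, Dync1i2, Dctn1, Kif11, Kif23, Kif20a, Kif2c and Kif4), and from the partner, microtubule and intraflagellar lists for up to 4 genes with the smallest adjusted p. Alternatives were DESeq2 1.42.0, RLE factors, no filter, each library left out, a replicate block, TruSeq libraries alone, mole TG 1 and DRG 2 left out together, an offset for GC content and, for the species difference, the mouse contrast turned. The offset was a loess curve (span 0.3) fitted to log2 CPM by GC percent, taken from the longest protein-coding mouse transcript of a symbol (GENCODE M21, GRCm38), and genes with no value got none.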

Additional observations from a re-analysis of the deposited data

Results flagged for a closer look

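The change between ganglia differed between mole and mouse (by label) in 15 motor genes, by the interaction test of edgeR at an adjusted p of 0.05. It was more positive in the mole for Kif19a, by 3.59 ± 0.59 (SE) on the log2 scale, the mole changing by 2.22 and the mouse by -1.86, and for Kif1c, by 1.78 ± 0.36, changing by 1.49 and -0.75. It was more negative in the mole for the dynactin genes Dctn4 (-3.21), Dctn5 (-2.08) and Dctn6 (-1.80), for the dynein genes Dynlt3 (-2.90), Dync1i1 (-2.39), Dync1li1 (-2.36) and Dync2li1 (-2.24), and for the kinesins Kif3b (-2.53), Kif23 (-2.48), Kif2a (-2.48), Kif1a (-2.04), Kif1b (-1.68) and Kif13a (-1.59). The adjusted p of these 13 ranged from 0.00610 for Dync1li1 to 0.0483 for Kif1b. Hox genes run against the mouse labels (25 of 33 tested were higher in the TG-labelled libraries and 0 in the DRG-labelled ones, against 1 and 19 of 33 in the mole), and each of these differences uses those labels. With the mouse contrast turned, Dync1li1 and Dync2li1 passed and the other 13 did not. Of 17 alternatives, Kif1b passed in 3, Kif13a in 4, and Dynlt3 and Kif2a in 5.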

How the results depend on the processing

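Counts of motor genes called depended most on which libraries entered. In the mole (3 higher in TG, 9 in DRG), counts ran from 0 to 6 and from 0 to 20 over the 6 fits that left out a library each. Over all genes those fits called 1.05% to 18.5% and 1.07% to 18.8%. Without mole TG 1 and mole DRG 2 together the counts were 12 and 27, beside 33.3% and 29.9% of all genes. DESeq2 called 16 as higher in DRG (9.72% of all genes), the TruSeq libraries alone 14 (10.2%), and the GC offset 1 and 5 (4.48% and 7.48%). In the mouse (1 and 1), 4 were higher in the DRG-labelled libraries with DESeq2 (3.95% of all genes), 2 with no filter (1.7%) and 2 with the GC offset (1.92%). Fits that left out a mouse library had 1 sample in a group, and their calls are not counted here. For the species difference (2 and 13), counts ran from 2 to 4 and from 8 to 26 over the 6 fits that left out a mole library. Over all genes those fits called 2.5% to 10.3% and 7.41% to 20.9%. Here too, fits that left out a mouse library had 1 sample in a group, and their calls are not counted. Their median difference over the motor genes was -1.133 to -0.962, beside -1.191 in the main fit. The tallies out of 17 alternatives given above for single genes do include those fits. DESeq2 gave 5 positive (12.1% of all genes), RLE factors 8 negative (7.86%) and the TruSeq libraries alone 22 negative (19%). TMM factors within each species gave 2 and 9 (6.35% and 7.94% of all genes) and the GC offset 2 and 12 (2.65% and 10.5%). With the mouse contrast turned 0 and 2 passed (1.48% and 5.77%), and Kif23 changed sign (1.173). These 3 settings were added after the data were seen. Where 1 sample was left in a group it is assumed to vary like the other group.

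The sources used do not say whether the same numbers mark the same animals. Deviations from the group means correlated at 0.389, 0.498 and -0.175 between same-numbered mole libraries. Between differently numbered ones they correlated at -0.462 to 0.304. With 2 mouse libraries per group the values are equal in size by construction, -0.111 for the same number and 0.111 otherwise. These values do not decide pairing, and the numbers were not taken to pair samples. The replicate block gave 2 and 11 calls in the mole (9.01% and 11% of all genes) and 1 and 1 in the mouse (1.13% and 1.47%). With the GC offset added it gave 0 and 7 (4.11% and 6.44%) and 1 and 1 (1.51% and 1.66%). Crossing the mouse numbers, a setting added after the data were seen, gave 4 and 4, beside 4.51% and 6.16% of all genes.

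By the other settings, signs turned in genes that had not passed. In the mole these were Dctn1 (-0.448 to 0.076 over fits that left out a library, positive without DRG 1, and 0.048 in the TruSeq libraries alone), Dync1h1 (-0.272 with the GC offset, -0.266 with the block added), Kif21a (-0.091 in DESeq2, -0.128 with no filter, -0.167 to 0.135 over fits that left out a library, negative without DRG 2, and -0.103 without TG 1 and DRG 2) and Kif23 (0.411 with the GC offset, 0.403 with the block added). In the mouse, leaving out a library gave -0.059 to 0.198 for Dync1h1, -0.036 to 0.327 for Kif1b, -0.588 to 0.560 for Kif2c, -0.242 to 0.532 for Kif4, -0.285 to 0.127 for Kif11 and -0.080 to 0.171 for Klc1. The cause of these moves was not tested. Of the other values for single genes, 577 kept direction and side of the threshold, 157 lost the call and 36 gained one. Low counts limit the mitotic kinesins of the mole.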

Other observations

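Some motor genes stood at different levels in the 2 species, in CPM scaled within each species. Kif21a was at 60.0 to 90.3 CPM in mole libraries and 894 to 1294 CPM in mouse libraries, and Kif21b, its close relative, was at 147.2 to 252.1 CPM and 27.2 to 43.1 CPM. Klc3 was at 25.6 to 293 CPM in the mole and 0.904 to 3.86 CPM in the mouse. These differences between species were not tested, since the mole counts sum reads aligned to other species' transcripts, and reads of near relatives can fall on either gene.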
